A study of Mus musculus with 48 samples.

Results

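Histone modifying enzymes were examined by family: the lysine demethylases (Kdm), the lysine methyltransferases listed as Kmt, Setd and Nsd, the lysine acetyltransferases (Kat) and the zinc-dependent histone deacetylases (Hdac). Members were chosen by symbol from the count table, with Kdm5c, Kdm5d and Kdm6a left out, which gave 53 of the 18782 genes listed: 15 Kdm, 8 Kmt, 8 Setd, 3 Nsd, 8 Kat and 11 Hdac genes. RNA was sequenced from thoracic aortas of 48 wild-type C57BL/6J mice, 1 library per mouse, in 3 male and 3 female groups. MaCon (n = 10) and FeCon (n = 10) mice drank normal water. All other mice drank water with 0.4% BAPN (beta-aminopropionitrile, an inhibitor of lysyl oxidase, which ties the matrix fibres of the vessel wall together) for 28 days from 3 weeks of age. Those alive at the end were divided by what was found: no lesion in MaNonAD (n = 4) and FeNonAD (n = 8), and a dissection or aneurysm in MaAAD (n = 7) and FeAAD (n = 9). NonAD and AAD mice therefore differed by outcome under 1 treatment, not by an assigned exposure, and only mice that survived to the end are in these groups. The methods describe the RNA as coming from lesioned segments, and the parts of the aorta taken from mice without lesions are not described separately.

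Histones carry chemical marks on lysines that change how tightly DNA is packed and which proteins bind it. Acetyltransferases add acetyl groups, which mostly accompany active genes, and deacetylases remove them; methyltransferases and demethylases write and erase methyl marks whose effect depends on the lysine, such as H3K4 and H3K36 at active genes and H3K9, H3K27 and H4K20 at silent ones. In the vessel wall these enzymes are known for controlling the contractile genes of smooth muscle cells, and the class IIa deacetylases for holding back MEF2 transcription factors.

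Totals of 13548003 to 17281262 counts per library were scaled by TMM, and levels are in CPM, which relate each count to the scaled size of its library. Of the 53 members, 52 passed the filter on low counts and were tested, and Kdm4d, a demethylase of the Kdm4 group, was not, with an average of 0.121 CPM. A member was called where the Benjamini-Hochberg adjusted p of edgeR's quasi-likelihood test, over all 14431 genes tested, was under 0.05, with no minimum fold change. All adjusted p-values are from that test, and fold changes are on the log2 scale with an approximate standard error (SE). The 10 smooth muscle markers were detected in every group, and their summed level fell from 28503 to 61341 CPM in MaCon to 12047 to 30165 CPM in MaAAD, and from 31432 to 53557 CPM in FeCon to 14194 to 32366 CPM in FeAAD. In whole tissue, fewer cells of a type and less RNA per cell cannot be told apart.

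Nearly all members were expressed in the aorta. Divided by the length of the longest annotated transcript, the mean level over all libraries was highest for Kmt5a (45.9 CPM per kb), the H4K20 monomethyltransferase, followed by Setd3 (41.2 CPM per kb), which methylates actin, Hdac5 (38.1 CPM per kb), Hdac1 (35.9 CPM per kb) and Hdac7 (30.7 CPM per kb). The lowest tested members were Setd4 (1.06 CPM per kb) and Kdm7a (1.82 CPM per kb), and Kdm4d stood at 0.0449 CPM per kb. The group SDs of neighbours in this order overlapped through most of it, as in the plot of levels by length. Hdac8 and Kat14 are less certain than the rest, because 95.8% and 45.8% of their deposited values were not whole, which marks reads shared out with other genes.

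**Figure D1:**
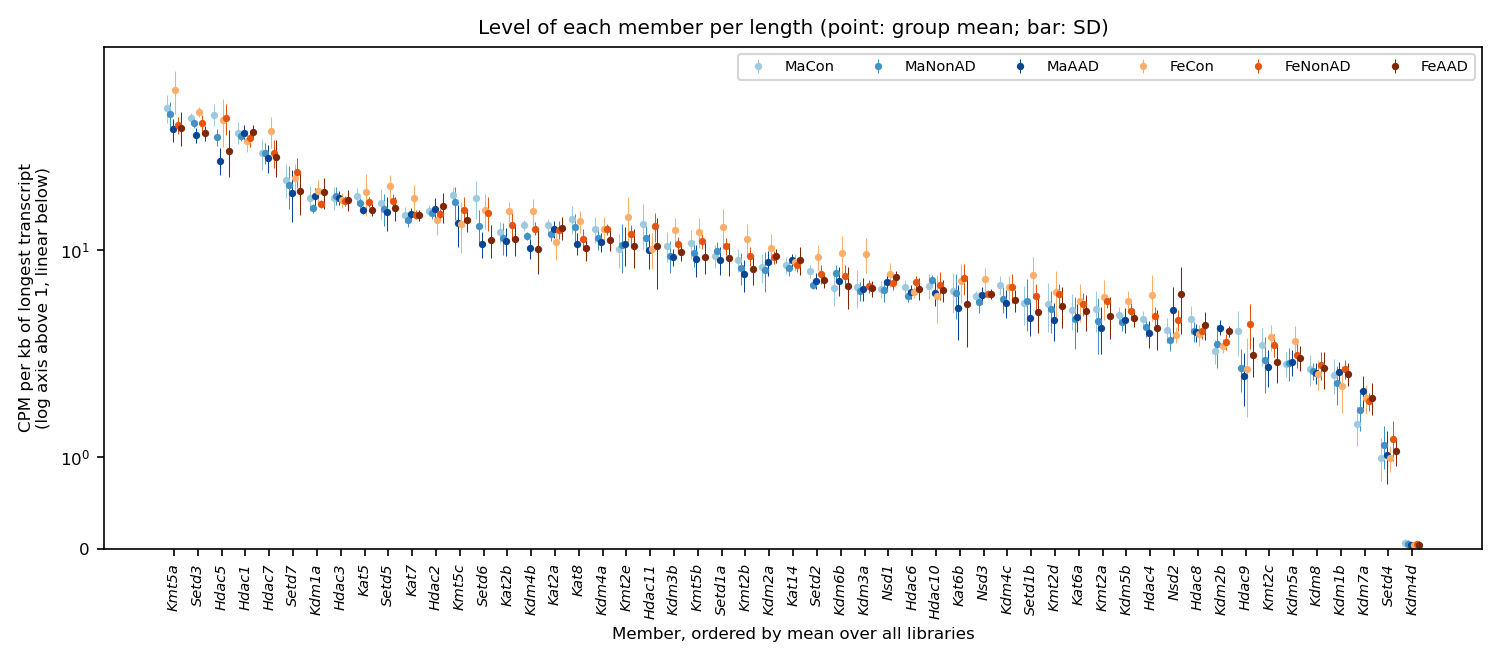
Level of the 53 members in CPM per kb of the longest transcript (vertical axis, logarithmic above 1 and linear below) in the 6 groups; points are group means and bars the SD over the libraries of a group (n = 4 to 10). Kmt5a, Setd3, Hdac5 and Hdac1 stand highest, 42 of the 53 members lie between 3 and 20, and Kdm4d lies near 0.

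The changes were small, and in the fit without covariates mostly downward. No member changed by as much as 2-fold in any pairwise comparison, and 2.75% of all genes tested were called with at least that change in FeNonAD versus FeCon, 12.7% in FeAAD versus FeCon, 7.04% in FeAAD versus FeNonAD, 11.4% in MaAAD versus MaCon and 1.51% in MaCon versus FeCon. The log2 fold change of largest size was -0.74 for Hdac5 in MaAAD versus MaCon, and 36 of the 52 tested members were called in at least 1 of the 9 comparisons, as were 59.7% of all genes tested. In FeAAD versus FeCon, 25 members were lower and 4 higher, when 20.6% of all genes tested were called lower and 23.8% higher. In MaAAD versus MaCon, 11 members were lower and 2 higher, beside 16.1% and 18.9% of all genes; with upper-quartile scaling, and with library totals alone, the split was 8 and 3. In FeNonAD versus FeCon, 9 members were lower and 1 higher, beside 7.66% and 6.87% of all genes, but with upper-quartile scaling 4 were lower and 3 higher, and with library totals alone 2 were lower and 2 higher. In FeAAD versus FeCon 15 of the 29 calls, and in MaAAD versus MaCon 8 of the 13, held under every alternative other than the 2-fold limit. Those held in both were Hdac5, Kat8, Kdm2b, Kmt5a, Setd3 and Setd6. Of the 10 calls in FeNonAD versus FeCon only Kmt5a held under every alternative other than the 2-fold limit; Hdac9 and Kdm3a were lost with clock genes as covariates, and the other 7 with library totals as well. In FeAAD versus FeNonAD, 4 members were lower and 1 higher, beside 5% and 13.2% of all genes. Of these 5 calls only Setd6 held under every alternative other than the 2-fold limit, and 3 remained without FeAAD replicate 5. The median log2 fold change over the 52 tested members was -0.25 in FeAAD versus FeCon and -0.12 in MaAAD versus MaCon, against 0.0013 and -0.030 over all genes tested.

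Pairwise comparisons with the 4 MaNonAD mice gave no calls of members. No member was called in MaNonAD versus MaCon, where 0.624% of all genes were called and 4 members had an unadjusted p under 0.05, nor in MaAAD versus MaNonAD, where 0.409% of all genes were called and 6 members had such a p. DESeq2 called none in either comparison. MaAAD versus MaNonAD depended on single libraries: without MaNonAD replicate 1 Kdm2b was called (log2 fold change 0.44, adjusted p = 0.024), and without MaAAD replicate 1 Nsd2 was called (0.57, adjusted p = 0.0342), when 767 genes in all were higher and 575 lower. The medians over members were nonetheless below 0 in both, at -0.095 and -0.060, beside -0.017 and 0.0033 over all genes tested.

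**Figure D2:**
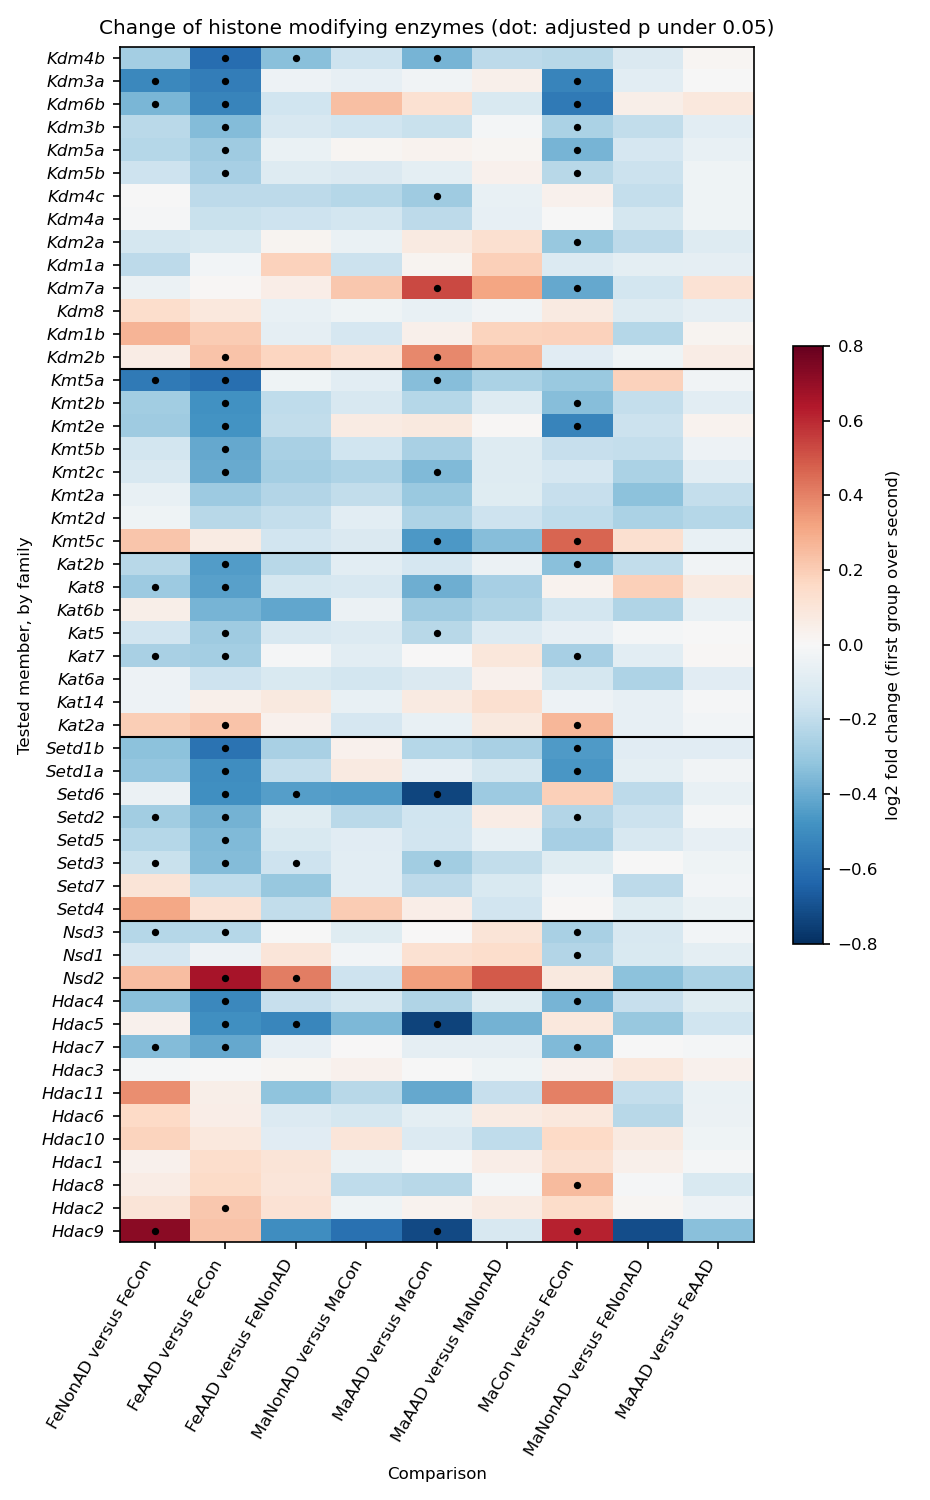
Log2 fold change of the 52 tested members (vertical axis, grouped by family) in the 9 pairwise comparisons (horizontal axis); blue is below 0, red above 0, and a dot marks an adjusted p under 0.05. Members below 0 outnumber those above in all 9 columns, from 32 of 52 in MaAAD versus MaNonAD to 44 of 52 in MaNonAD versus FeNonAD. No dot stands in the 4 columns MaNonAD versus MaCon, MaAAD versus MaNonAD, MaNonAD versus FeNonAD and MaAAD versus FeAAD.

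FeNonAD, FeAAD and MaCon were each compared with the same 10 FeCon libraries, so their calls are not independent of one another. The female and male AAD comparisons share no library. Of the 25 members lower in FeAAD, 8 (32.0%) were also lower in MaAAD, which is 72.7% of the 11 lower there: Hdac5, Kat5, Kat8, Kdm4b, Kmt2c, Kmt5a, Setd3 and Setd6. The MaAAD calls of Kat5 and Kmt2c were lost in DESeq2 (adjusted p = 0.0636 and 0.0575) and with every other scaling tried. Over all genes tested, 48.1% of those lower in FeAAD were also lower in MaAAD, which is 61.4% of those lower there. Kdm2b was higher in both. Lower in MaAAD but not called in FeAAD were Hdac9, Kdm4c and Kmt5c. DESeq2 called Kdm4c lower in FeAAD as well (log2 fold change -0.21, adjusted p = 0.0492). The MaAAD call of Kdm4c was lost under 5 alternatives, library totals among them (-0.21, adjusted p = 0.115). The promoters of 4 members whose changes are described in detail are shown here because they moved in different ways. Setd6 and Kmt5a were lower in AAD of both sexes. Kdm3a had the lowest adjusted p between the control groups. Hdac9 rose in FeNonAD and fell in MaAAD.

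The sequences are the 250 bases before the annotated start from RefSeq (build GRCm38.p6), and for Kmt5a, Kdm3a and Hdac9, which have several starts, the first listed. Capitals mark matches on either strand to 6 short motifs. The GC box was searched as GGGCGG and the box of the factor NF-Y as its usual 5 letters CCAAT. The motif of the respiratory factor NRF1 was searched as TGCGCA, and the motif bound by ETS family factors as CCGGAAG. The motif of YY1 was searched as AAGATGG, and the TATA box, found near the start of many strongly regulated genes, as TATAAA. The E-box of the clock factors, searched as CACGTG, and the cyclic AMP response element (CRE), searched as TGACGTC, had no match in these 4 windows.
Setd6, chr8:95715663-95715912, plus strand: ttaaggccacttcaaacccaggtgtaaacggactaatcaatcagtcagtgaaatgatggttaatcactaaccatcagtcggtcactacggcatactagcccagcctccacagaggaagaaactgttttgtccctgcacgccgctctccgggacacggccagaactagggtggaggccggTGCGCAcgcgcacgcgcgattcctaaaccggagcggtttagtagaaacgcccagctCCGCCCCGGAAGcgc
Kmt5a, chr5:124439680-124439929, plus strand: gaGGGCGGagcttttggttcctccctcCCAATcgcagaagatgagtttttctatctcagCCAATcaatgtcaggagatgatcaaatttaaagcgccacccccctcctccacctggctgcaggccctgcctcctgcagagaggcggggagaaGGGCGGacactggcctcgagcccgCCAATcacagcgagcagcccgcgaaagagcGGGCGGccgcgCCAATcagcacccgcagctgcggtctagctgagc
Kdm3a, chr6:71632918-71633167, minus strand: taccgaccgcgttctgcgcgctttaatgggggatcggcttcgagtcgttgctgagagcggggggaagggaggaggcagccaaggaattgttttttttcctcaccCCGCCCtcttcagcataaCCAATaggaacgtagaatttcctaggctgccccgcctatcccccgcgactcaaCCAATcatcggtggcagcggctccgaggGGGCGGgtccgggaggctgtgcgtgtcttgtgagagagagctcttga
Hdac9, chr12:34917096-34917345, minus strand: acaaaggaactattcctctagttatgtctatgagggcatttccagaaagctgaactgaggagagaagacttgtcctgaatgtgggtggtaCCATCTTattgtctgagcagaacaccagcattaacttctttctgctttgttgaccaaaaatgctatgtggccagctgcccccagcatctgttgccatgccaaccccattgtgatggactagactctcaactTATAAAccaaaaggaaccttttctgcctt
The Setd6 window holds a GC box at position -15, counted from the start, an ETS match at -10 that shares 1 base with it, and an NRF1 match at -71. The Kmt5a window holds 3 GC boxes and 4 CCAAT boxes and the Kdm3a window 2 of each. The Hdac9 window holds a TATA box at -29 and a YY1 match at -160 and neither of the others. Promoters of 38 members were matched by symbol, with 56 starts in all. A GC box was present in 58.9% of them, against 32.7% of all 32851 promoter windows of that length, a CCAAT box in 42.9% against 33.8%, a TATA box in 3.57% against 12.4% and an E-box in 3.57% against 6.02%. These are matches of letters, and several windows belong to 1 gene.

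Among the demethylases, 6 of 14 tested Kdm members were lower and 1 was higher in FeAAD versus FeCon, and 2 were lower and 2 higher in MaAAD versus MaCon. Kdm4b, which erases H3K9 and H3K36 trimethylation, stood lowest in AAD in both sexes. Its levels, given here and for the other members as the lowest, median and highest library of a group, were 58.0, 67.5 and 94.1 CPM in FeCon, 51.1, 59.6 and 62.6 CPM in FeNonAD and 24.7, 46.2 and 61.1 CPM in FeAAD. In males they were 54.6, 60.1 and 65.0 CPM in MaCon, 56.7, 52.8, 51.0 and 54.6 CPM in the MaNonAD libraries, and 36.7, 47.1 and 52.7 CPM in MaAAD. All 7 MaAAD libraries lay below every MaCon library, and 7 of 9 FeAAD libraries below every FeCon library. Kdm4b and Hdac5 were the 2 of 52 tested members whose MaAAD and MaCon libraries did not overlap, against 8.91% of all genes tested. Kdm4b fell by 0.61 (SE 0.10, adjusted p = 1.46e-06) in FeAAD versus FeCon, by 0.37 (SE 0.10, adjusted p = 0.00381) in MaAAD versus MaCon and by 0.34 (SE 0.10, adjusted p = 0.0155) in FeAAD versus FeNonAD. The MaAAD call was lost with the splicing-linked transcripts described further on as a covariate (log2 fold change -0.26, adjusted p = 0.0531). The FeAAD versus FeNonAD call was lost without FeAAD libraries 5 and 9 (log2 fold change -0.20, adjusted p = 0.154).

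Kdm3a, which removes mono- and dimethylation from H3K9, was higher in FeCon than in any other group. In females its lowest, median and highest levels were 30.8, 46.2 and 62.6 CPM in FeCon, 27.8, 32.0 and 35.5 CPM in FeNonAD and 27.2, 31.8 and 36.2 CPM in FeAAD. In males they were 24.0, 31.6 and 44.5 CPM in MaCon, 33.1, 26.4, 30.0 and 33.3 CPM in the MaNonAD libraries, and 25.1, 33.0 and 36.0 CPM in MaAAD. The 5 groups other than FeCon had medians within 31.6 and 33.0 CPM, against 46.2 CPM in FeCon, although 1 FeCon library reached down to 30.8 CPM. Kdm3a fell by 0.52 (SE 0.11, adjusted p = 0.00091) in FeNonAD and by 0.55 (SE 0.10, adjusted p = 2.18e-05) in FeAAD versus FeCon, and the log2 fold change was -0.029 (SE 0.11, adjusted p = 0.867) in MaAAD versus MaCon. The sex difference in the AAD response was 0.53 (SE 0.15, adjusted p = 0.063) and missed the threshold, whereas DESeq2 called it at 0.54 (adjusted p = 0.0289). Kdm6b, which erases H3K27 trimethylation and is induced in activated macrophages, is added after its values were seen because it ran the same way. Its female levels were 41.4, 64.5 and 88.1 CPM in FeCon, 40.0, 50.5 and 58.2 CPM in FeNonAD and 23.2, 46.8 and 55.6 CPM in FeAAD, and the male levels 33.2, 42.5 and 57.9 CPM in MaCon, 50.7, 56.9, 45.2 and 53.1 CPM in the MaNonAD libraries, and 37.6, 46.4 and 56.8 CPM in MaAAD. Kdm6b was lower than in FeCon by 0.37 (SE 0.13, adjusted p = 0.0483) in FeNonAD and by 0.53 (SE 0.13, adjusted p = 0.000595) in FeAAD, while the MaAAD change was 0.12 (SE 0.13, adjusted p = 0.508); the difference between the sexes, 0.65 (SE 0.18, adjusted p = 0.0592), had the lowest adjusted p of any member for the AAD response and did not pass, whereas DESeq2 called it at 0.66 (adjusted p = 0.0275). The FeNonAD call of Kdm6b was lost under 8 alternatives, library totals among them (log2 fold change -0.29, adjusted p = 0.121).

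Kdm2b, a CpG-binding demethylase that recruits a polycomb complex, rose in AAD of both sexes. Female levels were 16.2, 17.3 and 20.2 CPM in FeCon, 16.8, 18.1 and 21.9 CPM in FeNonAD and 18.3, 20.9 and 22.3 CPM in FeAAD, and male levels 13.9, 16.8 and 19.8 CPM in MaCon, 24.3, 14.2, 17.0 and 17.2 CPM in the MaNonAD libraries, and 18.0, 22.6 and 23.2 CPM in MaAAD. Above every control library of their sex lay 7 of 9 FeAAD and 6 of 7 MaAAD libraries. Kdm2b rose by 0.23 (SE 0.077, adjusted p = 0.0128) in FeAAD and by 0.38 (SE 0.082, adjusted p = 0.000224) in MaAAD. Kdm7a, an H3K9 and H3K27 demethylase named after its values were seen, rose by 0.53 (SE 0.13, adjusted p = 0.000843) in MaAAD versus MaCon, from a median of 14.1 to 20.4 CPM, whereas in FeAAD versus FeCon the log2 fold change was 0.0073 (adjusted p = 0.967). The sex difference in the AAD response was not called for Kdm7a, which was also called lower in MaCon than in FeCon. Kdm3b, Kdm5a and Kdm5b were lower in FeAAD by 0.26 to 0.35 on the log2 scale and Kdm4c lower in MaAAD by 0.29. The Kdm5a call in FeAAD was lost under 7 alternatives, among them library totals (log2 fold change -0.20, adjusted p = 0.142), upper-quartile scaling (-0.21, adjusted p = 0.0984) and leaving out FeAAD replicate 5 (-0.25, adjusted p = 0.0535). That of Kdm5b was lost with library totals (-0.19, adjusted p = 0.0591), and both, with Kdm3b, with either covariate fit described below for clock genes and splicing-linked transcripts. Kdm1a, Kdm1b, Kdm4a and Kdm8 had no call in the fit without covariates. With the splicing-linked covariate Kdm1b was called higher in FeAAD (0.47, adjusted p = 0.00249) and FeNonAD (0.38, adjusted p = 0.0131), and Kdm1a lower in FeNonAD (-0.26, adjusted p = 0.00884). Here and in the other families, members without values for each group were picked out after their values were seen.

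The Kmt family had the lowest median of the 6 families in FeAAD versus FeCon, at -0.40, with 5 of 8 members lower and none higher; in MaAAD versus MaCon the median was -0.28 with 3 lower. Kmt5a fell in every BAPN group except MaNonAD. Its female levels were 126, 155 and 257 CPM in FeCon, 98.1, 109 and 130.0 CPM in FeNonAD and 90.5, 101 and 158 CPM in FeAAD, and male levels 96.8, 133 and 168 CPM in MaCon, 100.003, 137, 136 and 127 CPM in the MaNonAD libraries, and 90.5, 101 and 124 CPM in MaAAD. Below every FeCon library lay 7 of 8 FeNonAD and 8 of 9 FeAAD libraries, the exception in FeAAD being replicate 9 at 158 CPM. Kmt5a fell by 0.57 (SE 0.11, adjusted p = 0.000601) in FeNonAD, by 0.60 (SE 0.11, adjusted p = 1.34e-05) in FeAAD and by 0.34 (SE 0.12, adjusted p = 0.0193) in MaAAD, and the FeAAD versus FeNonAD difference was -0.036 (adjusted p = 0.852).

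Kmt5b, which adds the further methyl groups to H4K20 after Kmt5a, ran lower in FeAAD. Female levels were 53.3, 79.3 and 89.9 CPM in FeCon, 61.6, 65.8 and 76.2 CPM in FeNonAD and 35.7, 59.3 and 67.9 CPM in FeAAD, and male levels 48.8, 69.1 and 80.5 CPM in MaCon, 60.6, 52.1, 53.2 and 71.2 CPM in the MaNonAD libraries, and 40.7, 57.7 and 66.4 CPM in MaAAD, with the groups overlapping. Kmt5b fell by 0.41 (SE 0.11, adjusted p = 0.00196) in FeAAD, a call that was lost with the splicing-linked transcripts as a covariate (log2 fold change -0.062, adjusted p = 0.56). Kmt2b, an H3K4 methyltransferase, had female levels of 70.0, 94.6 and 121 CPM in FeCon, 70.0, 77.8 and 90.5 CPM in FeNonAD and 44.6, 71.9 and 81.0 CPM in FeAAD. Its male levels were 65.3, 73.4 and 90.3 CPM in MaCon, 75.8, 62.8, 56.3 and 83.2 CPM in the MaNonAD libraries, and 50.5, 64.7 and 83.8 CPM in MaAAD. Kmt2b fell by 0.49 (SE 0.10, adjusted p = 0.000168) in FeAAD and was lower in MaCon than in FeCon by 0.34 (SE 0.10, adjusted p = 0.0187). Kmt5c, the other enzyme of the last steps at H4K20, was lower in MaAAD versus MaCon, by 0.46, and higher in MaCon than in FeCon, by 0.46. Kmt5b was called lower in MaAAD only with the replicate block (-0.30, adjusted p = 0.0482). The sex difference in the AAD response was called for Kmt5c only without MaAAD replicate 1 (-0.63, adjusted p = 0.0436). Kmt2a and Kmt2d, the founding H3K4 methyltransferases of this family, had no call in the fit without covariates or under any alternative.

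Among the Setd genes 6 of 8 were lower in FeAAD versus FeCon and 2 in MaAAD versus MaCon. Setd6, which is known to methylate the NF-kappaB subunit RelA, fell in AAD of both sexes. Its male levels were 20.8, 30.1 and 40.5 CPM in MaCon, 16.2, 24.9, 23.9 and 24.5 CPM in the MaNonAD libraries, and 14.3, 19.3 and 22.2 CPM in MaAAD, and its female levels 18.8, 26.5 and 39.1 CPM in FeCon, 20.9, 24.4 and 36.3 CPM in FeNonAD and 13.8, 19.0 and 24.0 CPM in FeAAD. Below every MaCon library lay 6 of 7 MaAAD libraries, and 7 of 9 FeAAD libraries lay below every FeNonAD library. Setd6 fell by 0.74 (SE 0.13, adjusted p = 2.16e-05) in MaAAD, by 0.49 (SE 0.12, adjusted p = 0.00116) in FeAAD versus FeCon and by 0.44 (SE 0.13, adjusted p = 0.0128) in FeAAD versus FeNonAD, and in FeNonAD versus FeCon it had a log2 fold change of -0.045 (adjusted p = 0.845). It was the only member still called in FeAAD versus FeNonAD without FeAAD libraries 5 and 9.

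Setd3, an actin histidine methyltransferase that carries a SET domain, was among the most abundant members and the only 1 of the 52 tested whose FeAAD and FeCon libraries did not overlap, against 4.89% of all genes tested. Female levels were 133, 139 and 156 CPM in FeCon, 106, 127 and 143 CPM in FeNonAD and 88.6, 114 and 118 CPM in FeAAD, and male levels 122, 134 and 145 CPM in MaCon, 126, 122, 119.9 and 134 CPM in the MaNonAD libraries, and 95.1, 110.3 and 126 CPM in MaAAD. Setd3 fell by 0.18 (SE 0.059, adjusted p = 0.0351) in FeNonAD, by 0.34 (SE 0.057, adjusted p = 3.28e-06) in FeAAD and by 0.28 (SE 0.061, adjusted p = 0.000279) in MaAAD. The FeNonAD call was lost with library totals (log2 fold change -0.11, adjusted p = 0.205), with upper-quartile scaling (-0.12, adjusted p = 0.118) and under 5 other alternatives. Setd2, which places H3K36 trimethylation in transcribed genes, had female levels of 58.3, 81.4 and 88.4 CPM in FeCon, 51.98, 66.1 and 73.3 CPM in FeNonAD and 50.6, 59.1 and 67.0 CPM in FeAAD. Male levels of Setd2 were 59.9, 66.1 and 73.8 CPM in MaCon, 54.7, 56.3, 55.1 and 61.0 CPM in the MaNonAD libraries, and 52.1, 60.2 and 66.7 CPM in MaAAD. FeCon stood above the other groups with overlap, and Setd2 fell by 0.28 (SE 0.073, adjusted p = 0.00702) in FeNonAD and by 0.38 (SE 0.07, adjusted p = 2.15e-05) in FeAAD. Setd1a and Setd1b, the catalytic subunits of the main H3K4 complexes, and Setd5 were lower in FeAAD by 0.50, 0.59 and 0.35, and Setd4 and Setd7 had no call in the fit without covariates or under any alternative.

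The Nsd genes, which dimethylate H3K36, moved in different directions. Nsd2, also known for its role in dividing lymphoid cells, rose in FeAAD, and in MaAAD under some alternatives only. Its female levels were 27.2, 30.0 and 36.3 CPM in FeCon, 30.4, 35.8 and 42.8 CPM in FeNonAD and 29.1, 43.2 and 80.3 CPM in FeAAD, and male levels 27.8, 30.2 and 41.0 CPM in MaCon, 31.7, 24.1, 28.8 and 29.5 CPM in the MaNonAD libraries, and 24.4, 38.7 and 62.5 CPM in MaAAD. Above every FeCon library lay 7 of 9 FeAAD libraries, led by replicate 5. Nsd2 rose by 0.66 (SE 0.13, adjusted p = 7.4e-05) in FeAAD versus FeCon and by 0.41 (SE 0.14, adjusted p = 0.0347) in FeAAD versus FeNonAD, and in MaAAD versus MaCon the log2 fold change was 0.33 (SE 0.14, adjusted p = 0.068). The MaAAD difference passed the threshold with library totals (0.40, adjusted p = 0.0353), upper-quartile scaling (0.38, adjusted p = 0.0282), clock genes as covariates (0.50, adjusted p = 0.00585) and without MaAAD replicate 1 (0.43, adjusted p = 0.0107). The FeAAD versus FeNonAD call was lost without FeAAD replicate 5 (log2 fold change 0.28, adjusted p = 0.17). Nsd3 levels were 55.0, 73.7 and 85.7 CPM in FeCon, 57.3, 62.8 and 65.1 CPM in FeNonAD and 56.6, 61.6 and 68.6 CPM in FeAAD, and in males 56.0, 61.0 and 66.0 CPM in MaCon, 62.5, 50.5, 51.8 and 62.5 CPM in the MaNonAD libraries, and 50.3, 63.5 and 66.6 CPM in MaAAD. Nsd3 fell by 0.23 (SE 0.067, adjusted p = 0.0169) in FeNonAD and by 0.23 (SE 0.064, adjusted p = 0.00322) in FeAAD, with no library of either group below the lowest FeCon library. Both calls were lost with library totals (log2 fold change -0.16, adjusted p = 0.141 and -0.16, adjusted p = 0.0748). Clock genes as covariates removed both too (-0.088, adjusted p = 0.616 and -0.12, adjusted p = 0.214). That in FeAAD was also lost with the splicing-linked covariate (-0.073, adjusted p = 0.333). That in FeNonAD was lost with upper-quartile scaling (-0.17, adjusted p = 0.0568) and a fit of the compared groups only (-0.22, adjusted p = 0.0596). Nsd1 levels were 80.0, 101 and 116 CPM in FeCon, 80.5, 88.3 and 99.6 CPM in FeNonAD and 83.9, 96.4 and 103 CPM in FeAAD, and in males 70.7, 84.3 and 94.9 CPM in MaCon, 91.1, 75.7, 70.4 and 89.2 CPM in the MaNonAD libraries, and 72.6, 91.6 and 97.7 CPM in MaAAD. In the fit without covariates Nsd1 was called only between the control groups, where it was lower in MaCon by 0.24 (SE 0.069, adjusted p = 0.0166). That call was lost with library totals (-0.21, adjusted p = 0.0809) and with clock genes as covariates (-0.19, adjusted p = 0.177). A fit of the compared groups only lost it too (-0.24, adjusted p = 0.0582). With the splicing-linked covariate Nsd1 was called higher in MaAAD versus MaCon (0.25, adjusted p = 0.00498).

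Among the acetyltransferases 4 of 8 Kat genes were lower and 1 higher in FeAAD versus FeCon, and 2 were lower in MaAAD versus MaCon. Kat8, which acetylates H4K16, fell in FeNonAD, FeAAD and MaAAD. Female levels were 17.9, 21.3 and 27.1 CPM in FeCon, 14.1, 18.4 and 19.9 CPM in FeNonAD and 12.6, 16.5 and 18.9 CPM in FeAAD, and male levels 19.6, 21.8 and 31.4 CPM in MaCon, 16.5, 24.3, 21.5 and 19.4 CPM in the MaNonAD libraries, and 14.8, 16.9 and 20.9 CPM in MaAAD. Below every control library of their sex lay 6 of 9 FeAAD and 6 of 7 MaAAD libraries. Kat8 fell by 0.29 (SE 0.094, adjusted p = 0.0308) in FeNonAD, 0.43 (SE 0.091, adjusted p = 0.000134) in FeAAD and 0.39 (SE 0.10, adjusted p = 0.00135) in MaAAD, and the FeNonAD call was lost under 5 alternatives, library totals among them (log2 fold change -0.22, adjusted p = 0.106). Kat2b (PCAF) had female levels of 53.3, 72.7 and 80.1 CPM in FeCon, 49.96, 62.5 and 72.6 CPM in FeNonAD and 35.4, 55.0 and 60.6 CPM in FeAAD. Male levels of Kat2b were 46.8, 55.7 and 70.0 CPM in MaCon, 57.9, 43.1, 48.1 and 64.5 CPM in the MaNonAD libraries, and 41.6, 53.5 and 62.7 CPM in MaAAD. Kat2b fell by 0.44 (SE 0.10, adjusted p = 0.000246) in FeAAD, a call lost with the splicing-linked covariate (log2 fold change -0.18, adjusted p = 0.0842), and was lower in MaCon than FeCon by 0.34 (SE 0.095, adjusted p = 0.0146), while its close relative Kat2a (GCN5) was higher in FeAAD and in MaCon, by 0.23 and 0.27. The Kat2a call in FeAAD was lost without FeAAD replicates 5 and 9 (log2 fold change 0.17, adjusted p = 0.12), with a fit of the compared groups only (0.25, adjusted p = 0.0795), with clock genes (0.20, adjusted p = 0.122) and with the splicing-linked covariate (0.14, adjusted p = 0.224). Kat7 (HBO1), which works at replication origins, had female levels of 49.6, 60.3 and 83.6 CPM in FeCon, 49.7, 53.0 and 57.6 CPM in FeNonAD and 47.6, 51.7 and 58.6 CPM in FeAAD. Male levels of Kat7 were 47.0, 52.2 and 60.3 CPM in MaCon, 52.9, 47.7, 45.8 and 52.7 CPM in the MaNonAD libraries, and 47.6, 53.8 and 58.5 CPM in MaAAD. Kat7 fell by 0.26 (SE 0.068, adjusted p = 0.00821) in FeNonAD and 0.27 (SE 0.066, adjusted p = 0.000885) in FeAAD, and its libraries overlapped between groups. Kat6a, Kat6b and Kat14 had no call in the fit without covariates. Kat6a was called with the splicing-linked covariate in FeAAD (0.26, adjusted p = 0.0279) and MaAAD (0.28, adjusted p = 0.0218), and Kat6b with the replicate block in FeAAD (-0.42, adjusted p = 0.0494).

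The deacetylases are given by class. In FeAAD versus FeCon, 3 of 4 class IIa genes (Hdac4, Hdac5 and Hdac7) were lower, whereas of the 4 class I genes, the core of nuclear repressor complexes, none was lower and Hdac2 was higher by 0.22. The Hdac2 call was lost without FeAAD replicate 5 (log2 fold change 0.14, adjusted p = 0.113), the highest FeAAD library at 73.9 CPM, and under 4 other alternatives. Hdac5 had female levels of 129.5, 221 and 327 CPM in FeCon, 205, 211 and 314 CPM in FeNonAD and 74.6, 159 and 210.2 CPM in FeAAD. Its male levels were 194, 251 and 291 CPM in MaCon, 174, 207, 176 and 205 CPM in the MaNonAD libraries, and 121, 141 and 172 CPM in MaAAD. All 7 MaAAD libraries lay below every MaCon library, and 7 of 9 FeAAD libraries below every FeNonAD library, but only 1 of 9 below every FeCon library. Hdac5 fell by 0.74 (SE 0.15, adjusted p = 0.000103) in MaAAD, by 0.49 (SE 0.14, adjusted p = 0.00314) in FeAAD versus FeCon and by 0.52 (SE 0.14, adjusted p = 0.00836) in FeAAD versus FeNonAD, and the last call was lost without FeAAD libraries 5 and 9 (log2 fold change -0.40, adjusted p = 0.0524). FeNonAD and FeCon had nearly the same Hdac5 mean (log2 fold change 0.032, adjusted p = 0.907).

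Hdac4 levels were 32.2, 50.7 and 65.5 CPM in FeCon, 33.2, 37.8 and 47.6 CPM in FeNonAD and 17.0, 35.1 and 44.0 CPM in FeAAD, and in males 33.0, 38.0 and 42.5 CPM in MaCon, 36.9, 29.9, 32.8 and 37.3 CPM in the MaNonAD libraries, and 26.8, 31.2 and 38.4 CPM in MaAAD. Hdac4 fell by 0.52 (SE 0.12, adjusted p = 0.000459) in FeAAD, and its groups overlapped. Hdac7, the class IIa gene best known from endothelial cells, had female levels of 137, 200.4 and 233 CPM in FeCon, 128, 147 and 198 CPM in FeNonAD and 78.7, 154 and 175 CPM in FeAAD. Male levels of Hdac7 were 112, 153 and 190.2 CPM in MaCon, 156, 128, 156 and 169 CPM in the MaNonAD libraries, and 114, 140.4 and 182 CPM in MaAAD. Hdac7 fell by 0.35 (SE 0.12, adjusted p = 0.0453) in FeNonAD and 0.41 (SE 0.12, adjusted p = 0.00375) in FeAAD, and the male groups lay within one range. Both Hdac7 calls were lost with Arntl and Dbp as covariates (log2 fold change -0.07, adjusted p = 0.845 and -0.19, adjusted p = 0.251).

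Hdac9, named after its values were seen, was the only member for which the sex difference in a response passed the test. Female levels were 14.1, 18.9 and 42.9 CPM in FeCon, 19.6, 36.7 and 44.8 CPM in FeNonAD and 13.0, 24.9 and 31.4 CPM in FeAAD, and male levels 18.8, 31.2 and 44.2 CPM in MaCon, 22.1, 18.0, 17.0 and 28.2 CPM in the MaNonAD libraries, and 9.04, 19.2 and 25.8 CPM in MaAAD. Most FeNonAD libraries stood above the FeCon libraries other than replicate 2, and MaAAD and MaNonAD ran below most MaCon libraries. Hdac9 rose by 0.72 (SE 0.19, adjusted p = 0.00821) in FeNonAD versus FeCon and fell by 0.72 (SE 0.20, adjusted p = 0.00433) in MaAAD versus MaCon, and in MaNonAD versus MaCon the log2 fold change was -0.60 (SE 0.25, adjusted p = 0.289). The MaAAD call was lost with clock genes as covariates (log2 fold change -0.49, adjusted p = 0.0637) and with the splicing-linked covariate (-0.37, adjusted p = 0.116), and the FeNonAD call with clock genes (0.62, adjusted p = 0.131). In FeAAD versus FeCon Hdac9 was called higher with the splicing-linked covariate (0.64, adjusted p = 0.00622), against 0.23 and no call without it. The sex difference in the NonAD response was -1.32 (SE 0.31, adjusted p = 0.0378), with 0.416% of all genes called, and that in the AAD response -0.95 (SE 0.27, adjusted p = 0.0653), with 1.34% called. DESeq2 called the latter as well (-0.94, adjusted p = 0.0342), and without FeCon replicate 2 it was -1.13 (adjusted p = 0.00642). The first call rests on few animals: it was lost without MaNonAD replicate 1, 2 or 3 in turn, without FeCon replicate 10 (log2 difference -1.28, adjusted p = 0.062) and with Arntl and Dbp as covariates (-0.95, adjusted p = 0.666). Hdac1, Hdac3, Hdac6, Hdac10 and Hdac11 had no call in the fit without covariates. Hdac1 was called in FeAAD with library totals (0.22, adjusted p = 0.00153) and upper-quartile scaling (0.21, adjusted p = 0.00644), and Hdac6 in FeNonAD with the same scalings (0.23, adjusted p = 0.0214, and 0.21, adjusted p = 0.0196). Hdac3 was called in FeAAD with the splicing-linked covariate (-0.16, adjusted p = 0.0325), and Hdac11 in FeNonAD with a fit of the compared groups only (0.37, adjusted p = 0.0494).

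**Figure D3:**
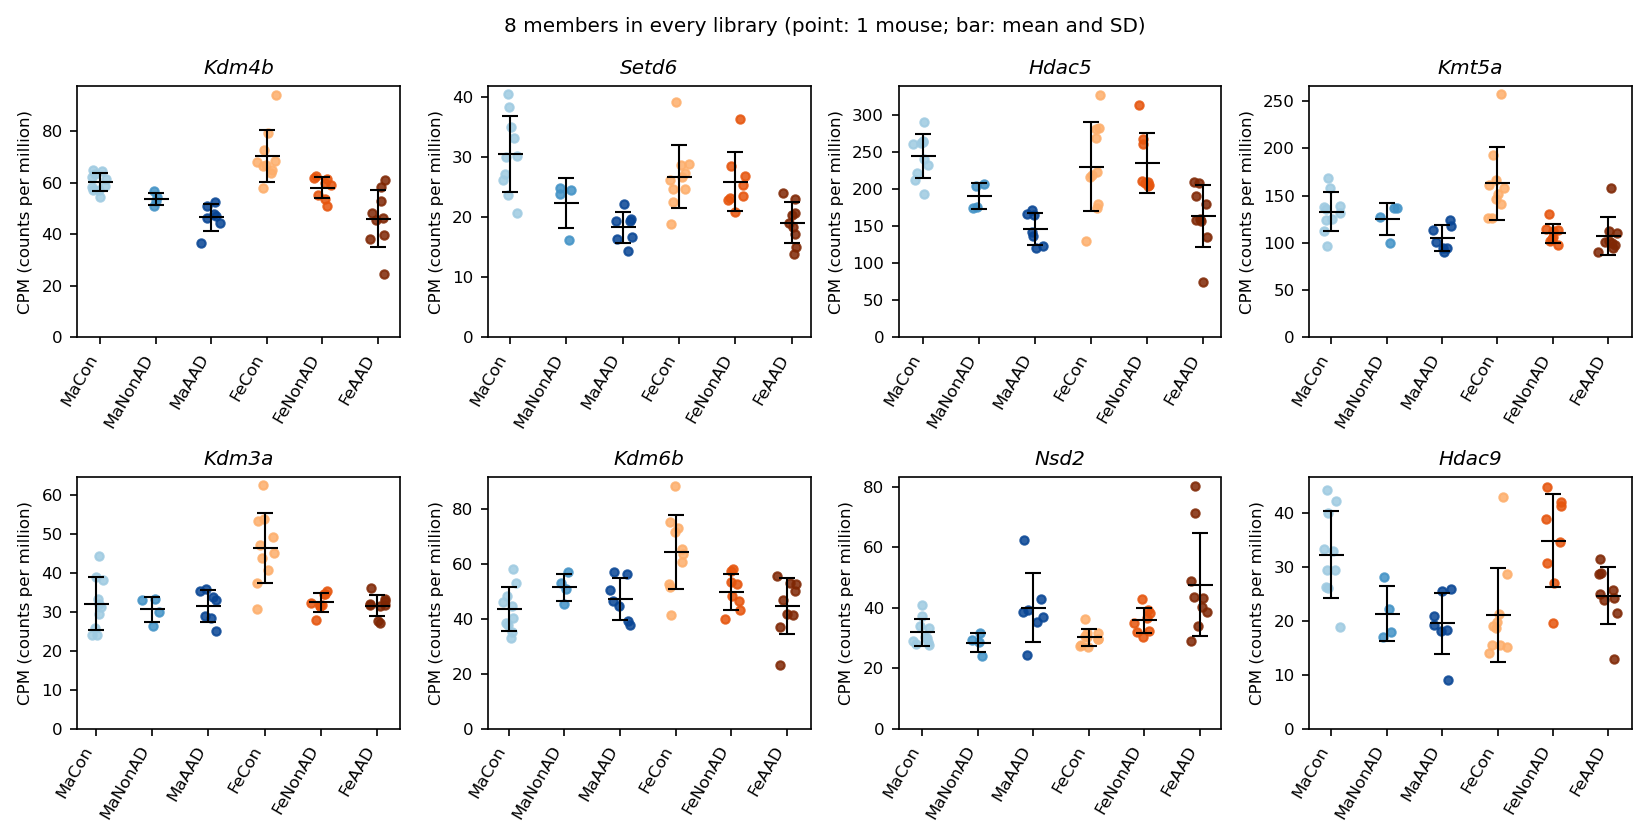
CPM of 8 members in every library (vertical axes, from 0) by group; each point is 1 mouse and the bars are the mean and SD. Hdac5 and Kdm4b show MaAAD wholly below MaCon, Kdm3a shows FeCon alone high, and Hdac9 shows FeNonAD high and MaAAD low.

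The comparison of the 2 control groups gave more calls of members than any other except FeAAD versus FeCon. In MaCon versus FeCon, 18 members were lower and 4 higher in males, when 7.9% of all genes tested were called lower and 6.38% higher. Lower were 7 of 14 Kdm genes, 3 of 8 Setd genes, and 2 each of the Kmt, Kat, Nsd and Hdac genes, with Kdm6b (-0.56, adjusted p = 0.00147), Kdm3a (-0.53, adjusted p = 0.000361), Kmt2e (-0.53, adjusted p = 0.00874) and Setd1a (-0.46, adjusted p = 0.00252) changing most. Higher in males were Hdac9 (0.62, adjusted p = 0.0189), Kmt5c (0.46, adjusted p = 0.00614), Kat2a (0.27, adjusted p = 0.0225) and Hdac8 (0.25, adjusted p = 0.0459). The libraries of the 2 control groups overlapped for all 52 tested members, and 0.152% of all genes tested did not overlap. No member was called between the sexes in NonAD or in AAD mice, where 0.0624% and 0.0901% of all genes were called and 2 and 0 members had an unadjusted p under 0.05; DESeq2 called none in either.

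Circadian clock genes differed widely among libraries of a single group, and the hour at which each aorta was taken is not given. The methods place faecal sampling of all mice in 1 morning window on 1 day, in random order and just before the mice were killed. Arntl, the core activator, ran from 1.62 to 63.1 CPM in MaCon and from 2.03 to 41.9 CPM in FeCon, and Dbp, an output gene of opposite phase, from 4.21 to 472 CPM and from 33.0 to 545 CPM. Of 16 clock genes, 7 were lower in MaCon than in FeCon and none higher, in MaAAD versus MaCon 3 were higher and 4 lower, and in FeAAD versus FeCon 3 were lower and none higher. Arntl was under 20 CPM in 7 of 7 MaAAD, 4 of 4 MaNonAD and 1 of 10 MaCon libraries, and in 6 of 9 FeAAD, 5 of 8 FeNonAD and 4 of 10 FeCon libraries. With the log2 levels of Arntl and Dbp as covariates, the number of members called fell from 22 to 2 in MaCon versus FeCon (Kdm3a and Kmt5c kept their calls) and from 10 to 1 in FeNonAD versus FeCon, where Kmt5a kept it. Calls over all genes fell too, from 920 higher and 1140 lower to 197 and 239 in MaCon versus FeCon, and from 991 and 1105 to 187 and 155 in FeNonAD versus FeCon. Some members lost their call with little change in size, such as Hdac8 (log2 fold change 0.25, adjusted p = 0.163), Kat2a (0.24, adjusted p = 0.142) and Kdm5a (-0.39, adjusted p = 0.0513) in MaCon versus FeCon, where the fit without covariates gave 0.25, 0.27 and -0.37. In the same comparison other changes shrank, such as Kdm6b from -0.56 to -0.36, Setd1a from -0.46 to -0.30 and Hdac9 from 0.62 to 0.40. These calls were lost too. In FeAAD versus FeCon 18 of 29 calls remained, in MaAAD versus MaCon 10 of 13, and in FeAAD versus FeNonAD 5 of 5. This alternative was chosen after seeing the data, it uses more parameters, and the part of clock phase in the calls was not tested further.

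Transcripts linked to splicing and nuclear retention moved with the members. Of 22 such genes in the table, including Clk1, Son and Rbm39, 13 were lower in FeAAD versus FeCon, 11 in MaAAD versus MaCon, 6 in FeNonAD versus FeCon and 5 in MaCon versus FeCon, with none higher. Their summed level ranged from 4225 to 6197 CPM in FeCon, 4907 to 5473 CPM in FeNonAD and 3504 to 5022 CPM in FeAAD, and from 4230.3 to 5685 CPM in MaCon, 4089 to 5047 CPM in MaNonAD and 3496 to 4787 CPM in MaAAD. FeAAD replicate 5 and MaAAD replicate 1 had the lowest mean of these transcripts in their groups and also the lowest mean of the 52 members, as the library plot shows. With that mean as a covariate, also added after seeing the data, 16 of 29 calls in FeAAD versus FeCon remained and 9 of 13 in MaAAD versus MaCon. New calls changed the balance: 8 members were higher and 8 lower in MaAAD versus MaCon, in place of 2 and 11, and 5 higher and 15 lower in FeAAD versus FeCon, in place of 4 and 25. Newly higher in MaAAD were Kat6a, Kdm2a, Kdm3a, Kdm5a, Kmt2e and Nsd1, and newly lower was Hdac8, so the mostly downward split in MaAAD was not kept under this covariate. Kmt2c then had log2 fold changes of 0.033 and 0.047 in these comparisons, in place of -0.40 and -0.35, and Hdac2, Hdac7, Kat2a, Kat2b, Kdm3b, Kdm5a, Kdm5b, Kmt2e, Kmt5b, Nsd3, Setd1b and Setd5 also lost their FeAAD calls and Hdac9, Kdm4b and Kdm4c their MaAAD calls. In FeAAD, Kdm3a, Kmt5a, Setd3, Setd6, Hdac5 and Kat8 were among those that kept them.

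**Figure D4:**
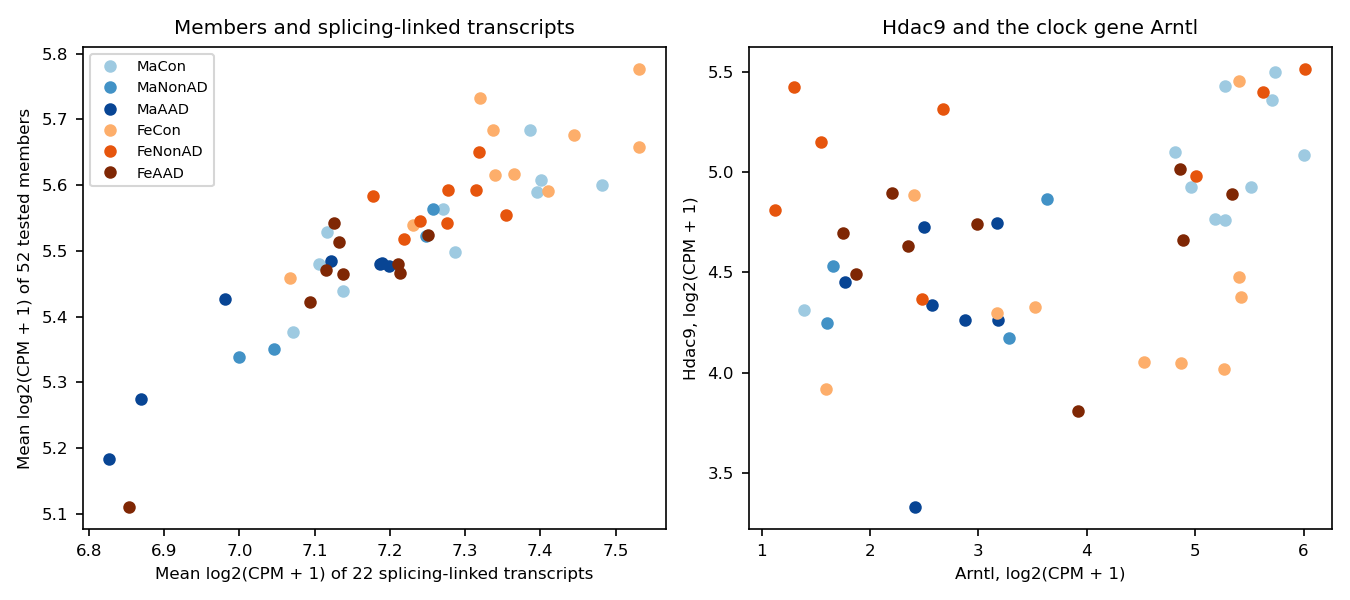
Left, mean log2(CPM + 1) of the 52 tested members (vertical) against that of 22 splicing-linked transcripts (horizontal); right, Hdac9 against the clock gene Arntl, both as log2(CPM + 1); each point is 1 of 48 libraries, coloured by group. On the left the lowest library by members is FeAAD replicate 5 at 5.11 and the highest FeCon replicate 4 at 5.78; on the right the libraries of single groups spread along the Arntl axis.

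Marker genes of several cell types changed as well. All 10 macrophage markers and all 20 proliferation genes were higher, and all 10 smooth muscle markers lower, in FeAAD versus FeCon and in MaAAD versus MaCon. The summed macrophage level was 311 to 734 CPM in FeCon, 405 to 1128 CPM in FeNonAD and 745 to 6240.3 CPM in FeAAD, and 261 to 669 CPM in MaCon, 579.5 to 992 CPM in MaNonAD and 969.6 to 4227 CPM in MaAAD, with no marker at 0 in any group. The summed proliferation level was 113 to 152 CPM in FeCon, 142 to 223 CPM in FeNonAD and 172 to 1184 CPM in FeAAD, and 100.2 to 180.1 CPM in MaCon, 149 to 218 CPM in MaNonAD and 199.9 to 769 CPM in MaAAD. In FeNonAD versus FeCon, 13 of the 20 proliferation genes were higher and 3 of the 10 smooth muscle markers lower, and no macrophage marker was called. Of other cell types, 7 of 8 neutrophil, 8 of 8 B cell and 6 of 6 erythroid markers tested were higher and 8 of 11 heart muscle markers lower in FeAAD versus FeCon, and 5 of 8 neutrophil and 5 of 8 B cell markers were higher in MaAAD versus MaCon. The summed neutrophil level had a median of 17.7 CPM in FeAAD (range 11.9 to 1157) and 12.6 CPM in FeCon (8.73 to 19.9). The erythroid medians were 641 CPM (235 to 26926) and 243 CPM (143 to 703), and the heart muscle medians 69.7 CPM (46.3 to 148) and 147 CPM (72.2 to 726), so single libraries stood far above the typical mouse. Of 10 fibroblast markers, 3 were higher and 2 lower in FeAAD versus FeCon, and 5 were higher and none lower in MaAAD versus MaCon. Of 10 immediate early genes, which respond within minutes to stress and tissue handling, 5 were higher in FeAAD versus FeCon and 5 versus FeNonAD, 2 were higher in FeNonAD versus FeCon, 3 were higher and 1 lower in MaAAD versus MaCon, and 2 were lower in MaCon versus FeCon. In MaCon versus FeCon, 4 of 8 T cell markers were higher. The summed T cell level had a median of 12.9 CPM in MaCon (range 2.27 to 189) and 7.98 CPM in FeCon (2.35 to 21.8). FeAAD replicate 5 was the highest library by macrophage and proliferation genes and the lowest by smooth muscle genes, and it held the lowest FeAAD value of 30 of the 53 members and the highest of 7, Nsd2 and Kdm2b among them. In MaAAD, replicate 7 was the highest by macrophage and proliferation genes and held the highest Nsd2 value, and replicate 1 was the lowest by smooth muscle genes and held the lowest value of 27 of the 53 members. The part of these cell types and of splicing-linked transcripts in the AAD changes was not tested beyond leaving out these libraries and the covariate fit; without FeAAD replicate 5, 27 of 29 calls in FeAAD versus FeCon remained, and without MaAAD replicate 7, or without replicate 1, 10 of 13 in MaAAD versus MaCon, with Kat5, Kdm4c and Kmt2c the 3 lost each time.

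Among other chromatin genes, 20 of 47 subunits of acetyltransferase and deacetylase complexes were lower and 2 higher in FeAAD versus FeCon, and 15 lower and 2 higher in MaAAD versus MaCon, when 20.6% and 16.1% of all genes were lower. Sap30, a subunit of the Sin3 deacetylase complex, rose by 1.68 (SE 0.30, adjusted p = 1.43e-05) in FeAAD and by 1.43 (SE 0.32, adjusted p = 0.00035) in MaAAD. Gatad2b, of the NuRD complex, was lower by 0.47 (SE 0.087, adjusted p = 2.38e-05) in FeAAD. Of 13 other acetyltransferases and sirtuins, 5 were lower and 1 was higher in each AAD comparison. Crebbp, the CBP acetyltransferase, fell by 0.50 (SE 0.075, adjusted p = 6.07e-07) in FeAAD and by 0.38 (SE 0.08, adjusted p = 0.000163) in MaAAD. The 1 that was higher was Hat1, which acetylates new histone H4, with 0.80 (SE 0.17, adjusted p = 0.000126) and 0.49 (SE 0.18, adjusted p = 0.027).

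Of 25 other methyltransferases, 7 were higher and 5 lower in FeAAD versus FeCon, when 23.8% and 20.6% of all genes were, and 3 were higher and 4 lower in MaAAD versus MaCon, beside 18.9% and 16.1%. These shares were near or below those of all genes. Ezh2, the H3K27 methyltransferase of dividing cells, rose by 1.2998 (SE 0.21, adjusted p = 2.4e-06) in FeAAD and 1.07 (SE 0.22, adjusted p = 0.000145) in MaAAD, and its relative Ezh1 fell by 0.44 (SE 0.094, adjusted p = 0.000156) and 0.47 (SE 0.10, adjusted p = 0.000248). Of 20 COMPASS and polycomb subunits, 5 were lower and 4 higher in FeAAD and 1 lower and 2 higher in MaAAD, also near or below the shares of all genes. Of 7 other demethylases, 4 were lower and 1 higher in FeAAD, with Hr, a corepressor with H3K9 demethylase activity, falling by 1.17 (SE 0.18, adjusted p = 1.46e-06), and 1 was lower and 1 higher in MaAAD, with Phf2 falling by 0.78 (SE 0.14, adjusted p = 1.34e-05).

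Transcript length went with the difference between the sexes. Across the 52 tested members, the log2 fold change of MaCon versus FeCon had a Pearson correlation of -0.48 with log2 length, and across 14092 genes tested with a known length it was -0.17. For members and for all these genes the values were -0.56 and -0.34 in MaNonAD versus FeNonAD. In MaAAD versus FeAAD they were -0.34 and -0.061. No member was called in either comparison. The value for members was -0.19 in FeAAD versus FeCon and 0.17 in MaAAD versus MaCon, beside -0.0995 and -0.0434 for all these genes. Genes are not independent replicates and these libraries share their processing, so the correlations are descriptions only.

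**Figure D5:**
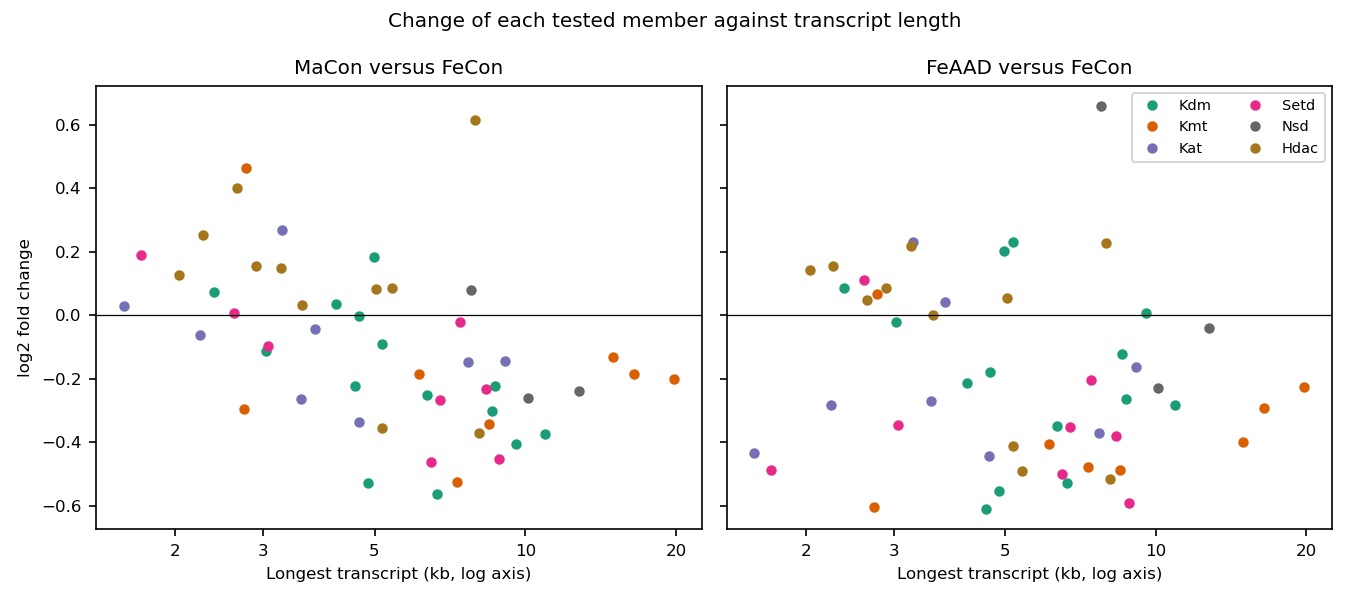
Log2 fold change of the 52 tested members (vertical) against the length of the longest transcript in kb (horizontal, logarithmic), coloured by family, for MaCon versus FeCon (left) and FeAAD versus FeCon (right). On the left 24 of the 28 transcripts over 5 kb lie below 0, with Hdac9 as the highest exception; on the right values near -0.6 occur among short and long transcripts alike.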

How the data were processed

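Thoracic aorta mRNA from 48 mice was made into strand-specific libraries and sequenced on a BGI platform. Per the labels, the authors aligned reads with Bowtie2 (version not given in the sources used here) to GRCm39 and estimated gene counts with RSEM 1.3.1. The deposited values are expected counts, 4.99% of them not whole, and were rounded here, which moved no library total by more than 24.1 counts. Groups came from the sample titles. Library totals ran from 13548003 to 17281262, and precision is given by the spread between mice.

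Genes passing filterByExpr (14431 of 18782) were fitted with edgeR 4.0.16 in R 4.3.3 (limma 3.58.1 for contrasts): TMM factors (0.874 to 1.08), 1 mean for each of the 6 groups over all 48 libraries, robust quasi-likelihood tests, two-sided, Benjamini-Hochberg adjusted over all genes tested. A call needed an adjusted p under 0.05. The planned design assumed whole counts and was otherwise kept. SEs are the log2 fold change divided by the root of F. The study's own differential test was DESeq2, used here (1.42.0) as an alternative. The scripts were tested on simulated data.

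The members and lists were chosen with earlier results of these data known. Group values are given in full for the 3 members of each family with the lowest adjusted p in any pairwise comparison and for the called member with the largest change among those averaging at least 10 counts per library; Hdac9, Kdm6b, Kdm7a and other members were added after their values were seen. Genes of other lists are a few of those with low adjusted p. Alternatives were other scaling, no filter, no robust step, a replicate block, fits of the compared groups only, a 2-fold limit, single libraries left out and, chosen after seeing the data, clock and splicing-linked covariates and further libraries left out. Transcript lengths came from a GRCm38 annotation and promoters from RefSeq on GRCm38.p6, matched by symbol; no coordinates were carried between builds.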

Additional observations from a re-analysis of the deposited data

Results flagged for a closer look

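In 13 of the 132 groups of values looked at (22 members in 6 groups), the highest or lowest library stood apart from the rest of its group by Dixon's 95% criterion, which chance alone meets in about 1 of 20. FeAAD replicate 5 was low for Hdac4 (17.0 CPM), Hdac7 (78.7 CPM) and Setd3 (88.6 CPM), and MaAAD replicate 1 for Kdm2b (18.0 CPM) and Nsd1 (72.6 CPM). FeAAD replicate 9 was high for Kmt5a (158.0 CPM). Among FeCon libraries, replicate 2 was high for Hdac9 (42.9 CPM) and Nsd2 (36.3 CPM), replicate 7 was high for Kmt5a (257.0 CPM) and Setd6 (39.1 CPM), and replicate 3 was low for Kat2b (53.3 CPM). MaCon replicate 10 was high for Kat8 (31.4 CPM), and MaNonAD replicate 1 was low for Setd6 (16.2 CPM).

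The response of Hdac9 in NonAD mice differed between males and females by -1.32 on the log2 scale in the test of the difference itself, a call that single libraries removed.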

How the results depend on the processing

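Of 80 calls of members over the comparisons, 78 held in DESeq2, 77 with DESeq2 size factors, 80 without robust estimation, 71 without the filter, 66 with upper-quartile scaling, 62 with fits of the compared groups only and 61 with library totals. Fewer held with the covariates chosen after seeing the data: 52 with splicing-linked transcripts, where 2 reversed, and 36 with Arntl and Dbp. A 2-fold limit left 0 members in each pairwise comparison. In FeNonAD versus FeCon the 10 calls became 4 with library totals and 6 without the filter. With Arntl and Dbp as covariates the calls were 1 in FeNonAD versus FeCon, 18 in FeAAD versus FeCon, 2 in MaCon versus FeCon and 0 for the sex difference in NonAD. In FeAAD versus FeNonAD the 5 calls became 1 with fits of the compared groups only, 3 without FeAAD replicate 5, 1 without FeAAD replicates 5 and 9, and 2 with the splicing-linked covariate. That covariate gave 2 calls for the sex difference in NonAD and 4 for that in AAD, and turned Kmt2c to 0.033 in FeAAD and 0.047 in MaAAD. The sex difference in AAD, with 0 calls, gave 3 in DESeq2 and 1 without FeAAD replicates 5 and 9. Leaving out single libraries gave 0 to 3 calls there (3 without FeCon replicate 2 or MaAAD replicate 1, 2 without MaAAD replicate 7, 1 without FeAAD replicate 5), 0 to 1 for the sex difference in NonAD and 0 to 1 in MaAAD versus MaNonAD. The cause of these changes was not tested.

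Replicate numbers came from the sample titles, which do not say whether they mark shared handling. Same-numbered libraries deviated together little on average (mean r from -0.061 to 0.145 over the comparisons, and in none was every pair over 0.1). The highest mean was in MaAAD versus FeAAD, where 3 of 7 pairs were over 0.1. With the replicate block the calls were 6 in FeNonAD versus FeCon, 3 in FeAAD versus FeNonAD and 1 for the sex difference in AAD, and 69 of the 80 calls held.

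The 4 MaNonAD mice limit every comparison that uses them. The hour at which each aorta was taken is not given beyond the morning window of faecal sampling, and cell makeup and group cannot be told apart in whole tissue.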

Other observations

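Prmt2, an arginine methyltransferase outside the 6 families and picked out after its values were seen, rose in female and fell in male AAD mice. Prmt2 rose by 0.74 (SE 0.14, adjusted p = 0.000244) in FeNonAD and by 0.62 (SE 0.13, adjusted p = 0.000145) in FeAAD versus FeCon, and fell by 0.70 (SE 0.14, adjusted p = 0.000116) in MaAAD versus MaCon, and in MaNonAD versus MaCon the log2 fold change was -0.59 (SE 0.17, adjusted p = 0.109), which did not pass. The MaNonAD change passed with a fit of the compared groups only (-0.58, adjusted p = 0.0487) and with the splicing-linked covariate (-0.67, adjusted p = 0.0435). The sex difference in the response was -1.33 (SE 0.22, adjusted p = 0.00223) in NonAD and -1.32 (SE 0.19, adjusted p = 0.000248) in AAD. With Arntl and Dbp as covariates both differences lost their call (-0.91, adjusted p = 0.378, and -0.99, adjusted p = 0.0582). In controls Prmt2 was higher in males by 1.04 (SE 0.13, adjusted p = 3.26e-07). Between the sexes under BAPN it was not called in NonAD (adjusted p = 0.721) or in AAD. DESeq2 gave log2 fold changes of -0.28 in MaNonAD versus FeNonAD and -0.27 in MaAAD versus FeAAD.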
